A study of Mus musculus with 4 samples.

Results

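The genes described here encode the fibrillar collagens I, III and V, and the open chromatin around them was compared between primary and late-passage mouse chondrocytes. The 6 genes were *Col1a1*, *Col1a2*, *Col3a1*, *Col5a1*, *Col5a2* and *Col5a3*. All ATAC-seq peaks inside these genes or within 50 kb of either end were taken, which gave 391 of the 455071 peaks in the 4 libraries. Peaks of different libraries that overlapped by at least 1 bp were merged into sites, and 135 of 172311 sites lay in these windows. ATAC-seq marks open chromatin by the insertion of sequencing adapters into accessible DNA. A peak is a stretch where the reads of a library exceed its local background. Its fold enrichment is the height of the read pileup over that background, with 1 added to each.

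The study followed chondrocytes that lose their cartilage phenotype in culture, and P0 was compared with P8 to ask how chromatin accessibility differed after long passaging. The cells came from knee cartilage of C57BL/6 mice aged 0 to 4 days and carried no engineered allele or added agent. The 2 P0 libraries were made from cells cultured for less than 24 h, and the 2 P8 libraries from cells at passage 8, replated each time the cell number had doubled from 24000 to 48000 per cm2. All cells grew in DMEM/F12 medium with fetal bovine serum. The labels do not say whether the libraries of a passage came from separate mice or cultures. The p-values therefore measure the spread between these libraries, partly or wholly pooled over all genes or sites, which may be technical. The peak names match no numbered sample title, and the libraries are called A and B within each passage.

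Fibrillar collagens are the rope-like proteins that give connective tissue its tensile strength. Collagen I, built from the chains of *Col1a1* and *Col1a2*, fills bone, tendon and skin, and collagen III, the product of *Col3a1*, accompanies it in soft tissue and in wounds. Collagen V, made from the chains of *Col5a1*, *Col5a2* and *Col5a3*, starts collagen I fibrils and sets their diameter. Hyaline cartilage relies instead on collagens II, IX and XI, and a shift from collagen II to collagen I is the textbook sign of a dedifferentiating chondrocyte.

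The P8 libraries were shallower. The background of the 4 libraries ranged from 162 to 194 tags per 10 kb at P0 and from 134 to 140 at P8, and the number of peaks from 119974 to 145703 at P0 and from 89610 to 99784 at P8. A gene with its 50 kb flanks held a median of 4.52 and 3.69 kb of peaks in the P0 libraries and of 2.44 and 2.82 kb in the P8 libraries. As a check of the labelled cell type, 7 of 7 chondrocyte marker genes (such as *Acan*, *Comp* and *Sox9*) had a peak within 1 kb of their start in each P0 library and 5 of 7 in each P8 library, where *Matn1* and *Snorc* had none. Of 6 fibroblast and tendon markers, 4 had such a peak in each P0 library and 2 in each P8 library. *Dpt* and *Tnmd* had none in any library. Among markers of other cells, a start peak was present in 2 of 4 blood and macrophage genes in each P0 library and in 1 of 4 in each P8 library, in 2 of 4 endothelial genes and 1 of 3 muscle genes in every library, and in 2 of 3 osteoblast genes at P0 and 1 of 3 at P8. *Lyz2* of blood cells and *Tek* and *Kdr* of endothelium had a start peak in all 4 libraries, and *Cd68* in the P0 libraries only. *Ptprc* and *Csf1r* of blood cells and *Pecam1* and *Cdh5* of endothelium were without one in all 4 libraries. The share of all genes with a start peak was not counted, so none stands beside these counts. The part of other cell types in the results below was not tested. In bulk libraries such as these, fewer cells with an open site and less opening per cell cannot be told apart.

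Promoter sequences are shown because open chromatin was called at the start of all 6 genes in every library. Those of the 4 genes with an entry in the promoter table are given, and *Col1a1* and *Col5a2* are named only. The sequences are the reference sequence of RefSeq (GRCm38.p6), each 5′ to 3′ on the strand of its gene and ending at the base before the most upstream annotated start. Capitals mark motif matches, searched on both strands. The letters searched were GGGCGG for the GC box and CCAAT for the box of that name. For the TATA box they were TATAAA, and for the TEAD motif CATTCC.
*Col1a2*, chr6:4505368-4505617, plus strand: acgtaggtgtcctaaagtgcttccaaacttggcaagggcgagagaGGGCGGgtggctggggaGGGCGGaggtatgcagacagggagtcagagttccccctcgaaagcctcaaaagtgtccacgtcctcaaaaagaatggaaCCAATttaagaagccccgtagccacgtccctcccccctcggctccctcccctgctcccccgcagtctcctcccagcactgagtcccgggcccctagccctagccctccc
*Col3a1*, chr1:45311288-45311537, plus strand: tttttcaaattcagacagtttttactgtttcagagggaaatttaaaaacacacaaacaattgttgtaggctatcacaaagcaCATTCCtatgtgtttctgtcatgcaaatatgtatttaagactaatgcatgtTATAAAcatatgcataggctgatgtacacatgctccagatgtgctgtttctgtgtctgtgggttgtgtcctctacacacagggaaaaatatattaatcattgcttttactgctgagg
*Col5a1*, chr2:27886175-27886380, plus strand: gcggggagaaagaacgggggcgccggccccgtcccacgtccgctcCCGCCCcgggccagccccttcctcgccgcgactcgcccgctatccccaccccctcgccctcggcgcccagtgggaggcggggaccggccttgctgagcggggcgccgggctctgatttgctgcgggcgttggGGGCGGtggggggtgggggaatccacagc
*Col5a3*, chr9:20815118-20815317, minus strand: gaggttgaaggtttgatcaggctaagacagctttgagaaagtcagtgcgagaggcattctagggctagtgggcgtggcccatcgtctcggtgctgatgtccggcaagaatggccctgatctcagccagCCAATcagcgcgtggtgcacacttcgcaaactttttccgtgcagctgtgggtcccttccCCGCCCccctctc

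The *Col3a1* promoter stood apart in composition. Its 250 bases held 35.2% G and C and 0 CpG dinucleotides, with a TATAAA 117 bases and a CATTCC 168 bases before the start. The *Col1a2* promoter held 62% G and C, 11 CpG, 2 GC boxes and a CCAAT box 109 bases before the start. The 206 bases shown for *Col5a1* held 77.7% G and C, 25 CpG and 2 GC boxes, and the 200 bases of *Col5a3* held 58% G and C, 10 CpG, 1 CCAAT box and 1 GC box. Across the 17492 promoters of the table (250 bases each), the median was 55.2% G and C and 10 CpG. In these, TATAAA was found in 12.4%, CATTCC in 11.6%, CCAAT in 36.3% and GGGCGG in 42.7%. Neither the AP-1 motif TGANTCA (in 6.22% of all promoters) nor the RUNX motif TGTGGT (in 12.5%) occurred in the 4 windows. The merged ATAC-seq site at the start covered all the bases shown of *Col1a2* (250) and *Col5a1* (206), 174 of 200 for *Col5a3* and 95 of 250 for *Col3a1*. Neither motif of *Col3a1* nor a match elsewhere in these windows is evidence that a factor was bound.

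All 6 genes carried a peak within 1 kb of the start in all 4 libraries, with either gene end counted for *Col1a1* and *Col5a2*. How many of all genes do so was not counted, so this cannot be read as particular to these genes. These start regions made up 9 of the 135 sites, 6 of which were called in every library. Of these 6, 0 passed the test between passages and 2 had an unadjusted p under 0.05. Of all 12863 tested sites within 1 kb of a gene start, 1821 had an unadjusted limma p under 0.05. Among them 203 passed as higher at P8 and 181 as higher at P0. With the summit pileup divided by the library's background in place of fold enrichment, 3 of the 6 passed as higher at P8. They were at *Col5a2* (0.48, limma adjusted p = 0.0201), *Col1a2* (0.46, 0.029) and *Col3a1* (0.70, 0.0367). By this measure, pileup over background, 13.8% of all sites tested were higher at P8 and 8.9% higher at P0. The divisor is a single value per library and cancels in the centring described next, so centred summit pileups were compared. Fold enrichment at the shared sites was tested with limma on the log2 scale over 55890 sites called in all 4 libraries, after each library was centred on its median site, with Benjamini-Hochberg adjustment. In that test 6.2% of sites were higher at P8 and 3.74% higher at P0, and without centring 1.08% and 11.8%. The uncentred median fell by 0.27 on the log2 scale from P0 to P8, so each difference below is relative to that shift.

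*Col5a2* had the strongest start of the 6. The site at chr1:45502650-45503360 reached a fold enrichment of 11.3 and 10.1 in the P0 libraries and of 11.4 and 11.6 in the P8 libraries. The P8 libraries were at or just above the higher P0 library, and the centred log2 difference was 0.37 ± 0.15 (SE, n = 2 per passage, limma adjusted p = 0.125). A second site 677 bp from the same gene end, chr1:45502301-45502605, was called in both P0 libraries (6.06 and 4.40) and in neither P8 library. *Col5a1* had the widest start site (chr2:27885678-27887496), with a fold enrichment of 6.65 and 8.18 at P0 and of 4.99 and 4.76 at P8. Both P8 values lay below both P0 values, and the centred difference of -0.33 ± 0.21 did not pass (limma adjusted p = 0.329). At the start of *Col5a3*, which encodes a minor collagen V chain (chr9:20814812-20815291), the values were 8.11 and 7.89 at P0 and 6.01 and 7.58 at P8. P8 library A was the low value there, the passages did not overlap, and the centred difference was 0.03 ± 0.19 (limma adjusted p = 0.949).

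The collagen I and III starts were weaker or mixed. The main *Col1a2* start site (chr6:4505237-4505951) stood at 6.65 and 8.76 at P0 and at 7.72 and 7.65 at P8, so that both P8 libraries fell between the P0 libraries (centred difference 0.28 ± 0.20, limma adjusted p = 0.384). A smaller site at chr6:4506253-4506515 stood at 3.74 and 5.30 at P0 and at 4.17 and 3.76 at P8, which also overlapped (adjusted p = 0.799 by limma). At *Col3a1* (chr1:45311443-45311631) P0 stood at 4.09 and 4.26 and P8 at 4.76 and 4.88. Both P8 libraries were above both P0 libraries at this start, by 0.48 ± 0.19 after centring (limma adjusted p = 0.108) and by 0.21 without (0.414). *Col1a1*, the gene of the main collagen I chain, had no single start site called in all libraries. The site at its lower-coordinate end (chr11:94936160-94936383) had no peak in P0 library A and stood at 3.77 in P0 library B and at 3.79 and 4.45 at P8. The next site, chr11:94936873-94937368, was called at 4.70 and 4.86 at P0 and at 2.99 in P8 library A, with no peak in P8 library B. The plot of fold enrichment at the starts sets these 9 sites side by side.

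**Figure D1:**
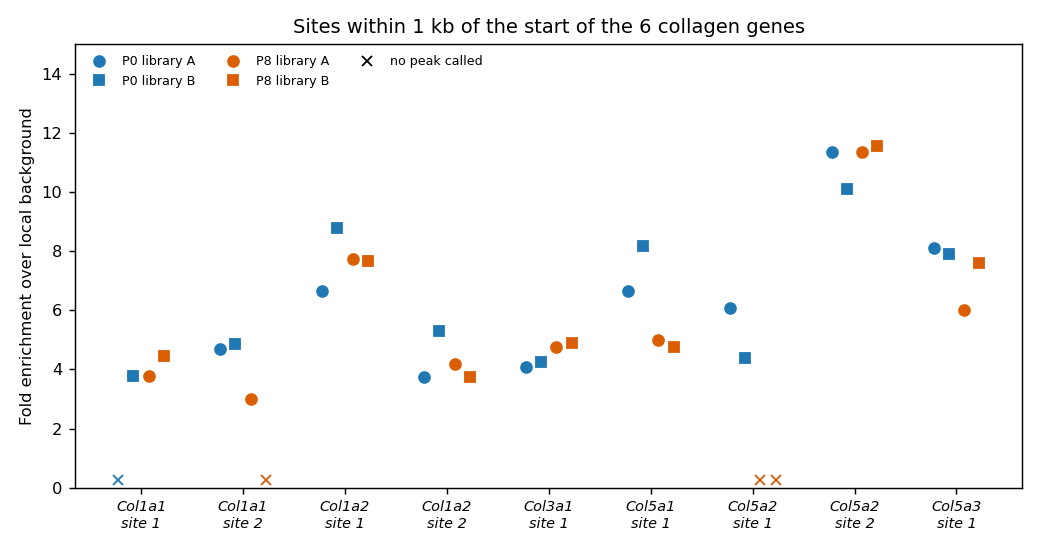
Fold enrichment over local background (vertical axis, from 0) of the strongest peak in each library at the 9 sites within 1 kb of a start of the 6 genes, where both ends count as a start for *Col1a1* and *Col5a2*. Points are single libraries and crosses mark libraries with no peak called; *Col5a2* site 2 sits between 10.1 and 11.6 in all 4 libraries, and of the 6 sites called in all 4 libraries *Col5a1* has the P8 values (4.76 and 4.99) farthest below its P0 values.

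The remaining sites lay in the gene bodies (49) and in the flanks (77). Of the body sites 11 were called in all 4 libraries, and of the flank sites 38. The window of *Col5a1*, the longest gene at 153 kb, held 37 sites, that of *Col5a2* 27, *Col1a2* 24, *Col1a1* 23, *Col5a3* 19 and *Col3a1* 10. The windows of *Col3a1* and *Col5a2*, which are neighbours on chromosome 1, shared 5 sites. For 35 of the 135 sites the nearest gene start belonged to a gene outside the 6. This held for 13 of 19 sites around *Col5a3* (9 nearest *Olfm2*, 4 nearest *Rdh8*) and for 10 of 23 around *Col1a1* (5 of them nearest *Ppp1r9b*).

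Of the 135 sites, 82 (60.7%) had peaks at both passages, 39 (28.9%) in P0 libraries only and 14 (10.4%) in P8 libraries only. Over all sites of the series these shares were 48.1%, 40.2% and 11.7%. At 13 sites both P0 libraries and neither P8 library had a peak (9.63%, against 17% of all sites), and at 1 site both P8 libraries and neither P0 library (0.741%, against 1.84%). Peaks in 1 library only made up 39 of the 135 sites (28.9%, against 33.1% of all sites). By gene, *Col5a1* held 5 of the 13, *Col1a2* 3, *Col5a2* and *Col5a3* 2 each, *Col1a1* 1 and *Col3a1* 0. At matched background, where only peaks that would pass at the shallowest library's background were kept, the count was 12. Without P0 library A, 19 sites were P0-only and 29 P8-only, and the P8-only sites numbered 9 without P8 library A and 6 without P8 library B.

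The strongest site present only at P0 was in the body of *Col1a2* (chr6:4523110-4523378), 17.6 kb from the start, at 7.29 and 8.06. Beyond the gene, chr6:4583540-4583845 stood at 7.25 and 5.87. In the body of *Col5a1*, chr2:27983995-27984156 stood at 4.70 and 6.41 and chr2:27897280-27897511 at 4.95 and 5.56. These 4 sites had no peak in either P8 library. Further P0-only sites were chr1:45430538-45430722 in the body of *Col5a2* (5.12 and 4.29), chr9:20751695-20751915 (5.80 and 6.41) and chr9:20757125-20757279 (3.29 and 7.48) in the flank of *Col5a3*, and chr11:94991983-94992220 in the *Col1a1* window, inside *Ppp1r9b* (2.73 and 3.57). The single site called in both P8 libraries and in no P0 library, chr2:27888131-27888232 in *Col5a1* 1.8 kb after the start, was narrow and low, at 3.47 and 3.13. A site without a peak may still be open below the caller's threshold.

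**Figure D2:**
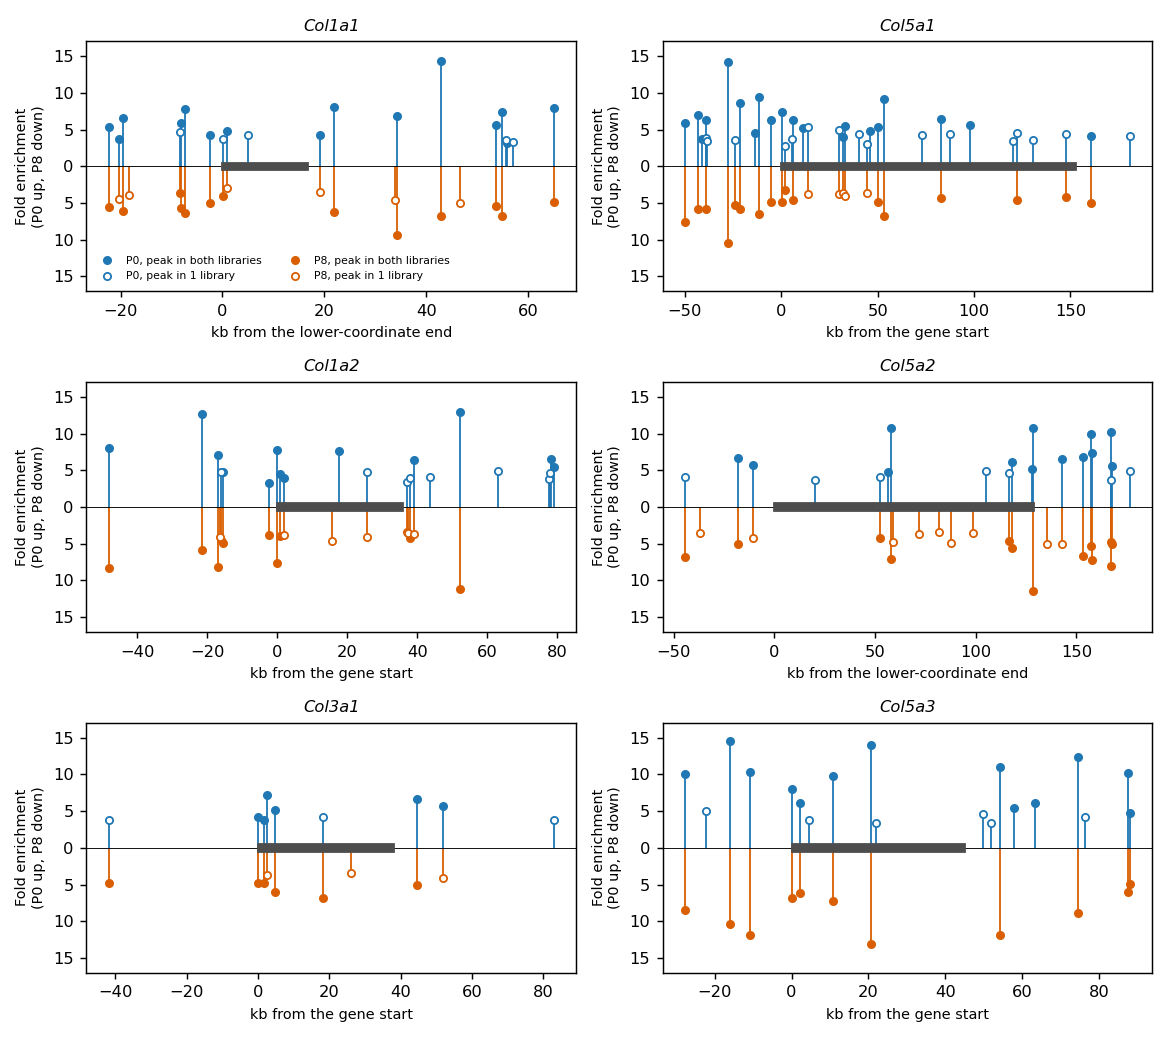
Fold enrichment at each site around the 6 genes against distance in kb from the gene start, or from the lower-coordinate end for *Col1a1* and *Col5a2*, with the P0 mean drawn upwards and the P8 mean downwards. Grey bars are the genes, filled points had a peak in both libraries of the passage and open points in 1. Most of the 82 sites seen at both passages form mirrored pairs. *Col5a1* and *Col5a3* carry 15 and 8 sites with only an upward P0 line (40.5% and 42.1% of their sites, against 40.2% of all sites). Of these, 5 and 2 had a peak in both P0 libraries.

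**Figure D3:**
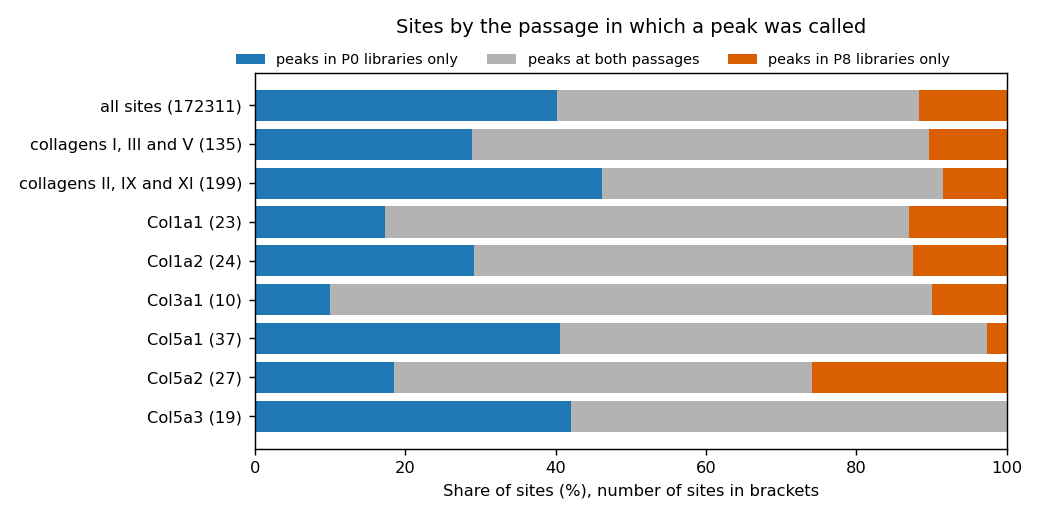
Share of sites (%, horizontal axis) with peaks in P0 libraries only, at both passages or in P8 libraries only, for all sites, the 6 collagen I, III and V genes together, the 6 cartilage collagen genes, and each gene, with the number of sites in brackets. P0-only sites make up 28.9% around collagens I, III and V, 46.2% around collagens II, IX and XI and 40.2% of all sites.

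Of the 55 sites called in all 4 libraries, 2 passed the limma test as higher at P8 (3.64%, against 6.2% of all sites) and 3 as higher at P0 (5.45%, against 3.74%). The median centred difference of the 55 sites was 0.13, and that of all sites 0.07. Without centring 0 were higher at P8, against 1.08% of all sites, and 6 higher at P0, against 11.8%. Without P0 library A 0 were higher at P0, and without P0 library B 0 passed in either direction. By pileup over background (centred summit pileup) 22 of the 55 were higher at P8, against 13.8% of all sites, and 3 higher at P0, against 8.9%. The balance of the calls thus turned with the measure. As deposited, both P8 values exceeded both P0 values at 9 of the 55 sites (16.4%, against 11.6%) and lay below them at 25 (45.5%, against 49.9%).

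The largest loss was at chr6:4483615-4484237, 21.7 kb before *Col1a2*. Its fold enrichment dropped from 13.3 and 11.9 to 5.32 and 6.26. The P8 libraries were far below the P0 libraries, and the centred difference was -0.86 ± 0.17 (limma adjusted p = 0.00685). It kept the direction in all 9 alternatives in which the site was tested and passed in 6 of them. A nearly equal loss was found at chr11:94978929-94979347 in the *Col1a1* window, where the values were 15.7 and 12.8 at P0 and 4.94 and 8.59 at P8 (-0.85 ± 0.20, limma adjusted p = 0.0125). That site lies 2.6 kb from the start of *Sgca*, a sarcoglycan gene of muscle membranes, and 42.9 kb from the lower-coordinate end of *Col1a1*. Near *Col5a2*, chr1:45531544-45531849 stood at 10.6 and 9.24 at P0 and at 4.66 and 5.88 at P8, with no overlap (-0.65 ± 0.19, limma adjusted p = 0.0372). It lies 28.3 kb beyond the upper-coordinate end of that gene. The site near *Sgca* passed in 5 of 9 alternatives and that near *Col5a2* in 3 of 9, both with the direction kept in all.

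The 2 gains were smaller. At chr11:94970233-94970580, inside *Sgca* and 34.2 kb from the lower-coordinate end of *Col1a1*, P0 stood at 7.68 and 5.95 and P8 at 8.06 and 10.7 (0.73 ± 0.19, limma adjusted p = 0.0223). At chr2:27836104-27836495, 49.9 kb before *Col5a1* and at the edge of its window, P0 stood at 5.94 and 5.71 and P8 at 7.0 and 8.16 (0.65 ± 0.19, limma adjusted p = 0.0395). Both P8 libraries exceeded both P0 libraries at these sites. Without centring the adjusted p-values were 0.156 and 0.199, and the site before *Col5a1* passed in 1 of 9 alternatives, the other in 4 of 10.

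Other shared sites did not pass. In *Col3a1*, chr1:45312996-45313159 stood at 3.17 and 4.49 at P0 and at 3.84 and 5.77 at P8, with overlapping passages (0.59 ± 0.21, limma adjusted p = 0.0841), and chr1:45315899-45316430 stood at 5.00 and 5.26 at P0 and at 5.52 and 6.42 at P8 (0.49 ± 0.20, adjusted p = 0.121). Just before *Col1a2*, chr6:4503240-4503387 stood at 3.10 and 3.53 at P0 and at 3.70 and 4.02 at P8 (0.49 ± 0.17, limma adjusted p = 0.0658), while chr6:4488392-4488701 overlapped between passages (adjusted p = 0.121). The site 2.3 kb from *Col1a1*, chr11:94933576-94933937, ran from 2.89 to 5.58 at P0 and from 4.40 to 5.56 at P8 (limma adjusted p = 0.138). Sites that stood lower at P8 were chr2:27864498-27865311 before *Col5a1* (8.34 and 9.01, then 5.12 and 6.41), chr1:45432016-45432314 in *Col5a2* (9.04 and 12.4, then 6.21 and 8.03) and chr9:20727293-20728172 inside *Olfm2* (10.0 and 10.5, then 5.60 and 6.49), each P0 then P8. None of these passed after centring (limma adjusted p = 0.29, 0.315 and 0.0858). The higher sites chr2:28046801-28047000 (4.14 and 4.12, then 4.57 and 5.54), chr9:20825622-20826159 in *Rdh8* (10.3 and 10.5, then 12.3 and 11.6) and chr9:20760784-20761226 (10.7 and 11.3, then 11.6 and 12.2) did not pass either (limma adjusted p = 0.067, 0.0577 and 0.102).

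To compare whole loci, the length covered by peaks in the gene and its 50 kb flanks was summed per library. *Col1a1* had 5.72 and 4.75 kb at P0 and 3.62 and 4.70 kb at P8, from 16 to 18 peaks in every library. *Col1a2* had 5.92 and 4.36 kb at P0 and 3.69 and 4.26 kb at P8. In both genes the higher P8 library came just under the lower P0 library. *Col3a1* had by far the least, with 1.54 and 0.931 kb at P0 and 1.17 and 1.31 kb at P8, and its P8 libraries lay between the P0 libraries. *Col5a2* had 4.66 and 3.24 kb at P0 and 2.87 and 3.75 kb at P8, which overlapped.

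The other collagen V genes differed more between passages as called, though close to the median gene. *Col5a1* went from 9.45 and 5.72 kb, in 37 and 23 peaks, to 3.86 and 4.85 kb, in 20 and 23 peaks. *Col5a3* went from 5.74 and 5.34 kb to 3.13 and 3.78 kb. Both P8 libraries were below both P0 libraries in each, and P0 library A of *Col5a1* stood above all other values. As called by MACS2, the mean covered length at P8 was 0.574 times that at P0 for *Col5a1*, 0.623 for *Col5a3*, 0.773 for *Col1a2*, 0.794 for *Col1a1*, 0.839 for *Col5a2* and 1.0 for *Col3a1*, and the median of this ratio over all genes tested was 0.643. The P8 values lay under both P0 values in 4 of the 6 genes, against 90.8% of the 18387 protein-coding genes tested, and above them in 0 of 6, against 0.386%.

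**Figure D4:**
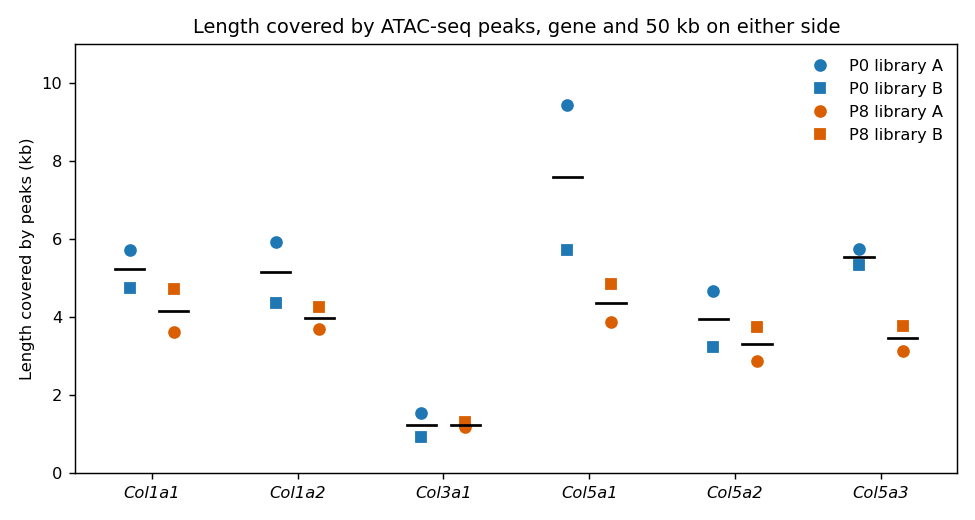
Length covered by peaks (kb, from 0) in each of the 6 genes with 50 kb on either side. Points are the 4 libraries and horizontal lines the mean of each passage; *Col5a1* in P0 library A is the highest value (9.45 kb), the passages overlap in *Col3a1* and *Col5a2*, and *Col3a1* stays between 0.931 and 1.54 kb.

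Per kb of window, which allows genes of different length to be compared, *Col1a1* had the highest covered length at P0 with 44.8 ± 5.9 bp per kb (SD, n = 2 libraries). *Col5a3* (38.2 ± 1.9), *Col1a2* (37.8 ± 8.1) and *Col5a1* (30.0 ± 10.4) followed, then *Col5a2* (17.2 ± 4.4) and *Col3a1* (8.94 ± 3.1). At P8 the order was *Col1a1* (35.6 ± 6.6), *Col1a2* (29.2 ± 3.0), *Col5a3* (23.8 ± 3.2), *Col5a1* (17.2 ± 2.7), *Col5a2* (14.5 ± 2.7) and *Col3a1* (8.96 ± 0.71). The libraries of *Col5a3*, *Col1a2* and *Col5a1* overlapped at P0 as neighbours in that order. At P8 *Col1a1* overlapped *Col1a2*, and *Col5a1* overlapped *Col5a2*. *Col3a1* lay below *Col5a2* in every library.

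Covered length was tested with limma on log2(kb + 0.1), with each library centred on its median gene. The uncentred median of all genes fell by 0.62 on the log2 scale. In this fit 10.4% of genes were higher at P8 and 15.4% higher at P0, and without centring 0.125% and 64.7%. Relative to the median gene, 4 of the 6 collagen genes were higher at P8 and 0 were higher at P0, whereas without centring 0 were higher at P8 and 2 higher at P0. The 4 were *Col3a1* (0.66 ± 0.20 SE, limma adjusted p = 0.0253), *Col5a2* (0.38 ± 0.11, 0.0204), *Col1a1* (0.29 ± 0.10, 0.0366) and *Col1a2* (0.27 ± 0.10, 0.0498). The overlapping windows of *Col3a1* and *Col5a2* share 5 sites, of the 10 around *Col3a1*, so their results are not independent. Without centring the differences were 0.04, -0.24, -0.33 and -0.35, with limma adjusted p-values from 0.143 to 0.901. *Col5a1* (-0.13 ± 0.11, adjusted p = 0.408) and *Col5a3* (-0.05 ± 0.10, 0.728) did not pass against the median gene, and they are the 2 genes called lower at P8 without centring (-0.75, limma adjusted p = 0.0022, and -0.67, 0.0074). In the fit without centring, limma pooled the spread over all genes along its trend, so those p-values do not rest on each gene's own spread. With 2 libraries per passage an exact two-sided permutation test of a single gene cannot go below p = 0.33.

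The median of the 6 centred differences was 0.28, against 0.00 over all genes tested. *Col3a1* stood at the 98.7th percentile of all genes, *Col5a2* at the 92.3rd, *Col1a1* at the 85.9th and *Col1a2* at the 83.9th, while *Col5a3* was at the 42.8th and *Col5a1* at the 33.3rd. In all 11 alternatives that kept the centring these 4 genes were above 0. The calls held less well, with *Col3a1* passing in 8 of the 11, *Col5a2* in 7, *Col1a1* in 5 and *Col1a2* in 4. With the number of peaks, or with fold enrichment times length, in place of the covered length, 0 of the 6 passed. Of all 18387 genes tested, 408 were higher at P8 and 1499 higher at P0 by number of peaks. By fold enrichment times length these counts were 1748 and 2359. With 10 kb flanks 2 passed, without P0 library A 2, and without P0 library B 0. In each fit without a library the spread came from the remaining pair, pooled mostly over all genes by limma's trend. The lone library was assumed to vary alike. When sites within 1 kb of another gene's start were left out of the windows, the same 4 genes passed, with limma adjusted p-values from 0.00935 to 0.0262.

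In covered length the cartilage collagens moved the other way, on the centred scale only. Of *Col2a1*, *Col9a1*, *Col9a2*, *Col9a3*, *Col11a1* and *Col11a2*, 5 were lower at P8 relative to the median gene, 0 were higher and *Col2a1* did not pass, with a median of -0.55 against 0.28 for the 6 genes of collagens I, III and V. *Col11a1*, a chain of the collagen that starts cartilage fibrils, had the largest decrease of the 6, from 11.7 and 9.87 kb to 3.17 and 3.69 kb (-1.0 ± 0.09, limma adjusted p = 1.2e-06). *Col2a1*, the main cartilage collagen, went from 9.82 and 9.40 kb to 4.68 and 6.19 kb (-0.21 ± 0.10, adjusted p = 0.124). Without centring all 6 cartilage collagens were lower at P8, *Col2a1* by -0.82 (limma adjusted p = 0.000598), and the list medians were -1.17 for the cartilage collagens and -0.34 for collagens I, III and V, both below 0. The ranges of the centred differences did not overlap, from -1.0 to -0.21 for the cartilage collagens and from -0.13 to 0.66 for collagens I, III and V. The difference between these lists was not itself tested. Both P0 libraries and neither P8 library had a peak at 42 of 199 cartilage collagen sites (21.1%), against 9.63% around collagens I, III and V and 17% of all sites. Fold enrichment at the sites called in all 4 libraries did not follow this contrast. There the median centred difference was 0.33 for the cartilage collagens and 0.13 for collagens I, III and V. By limma, 17 of 56 cartilage collagen sites were higher at P8 and 1 higher at P0, against 2 and 3 of 55.

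**Figure D5:**
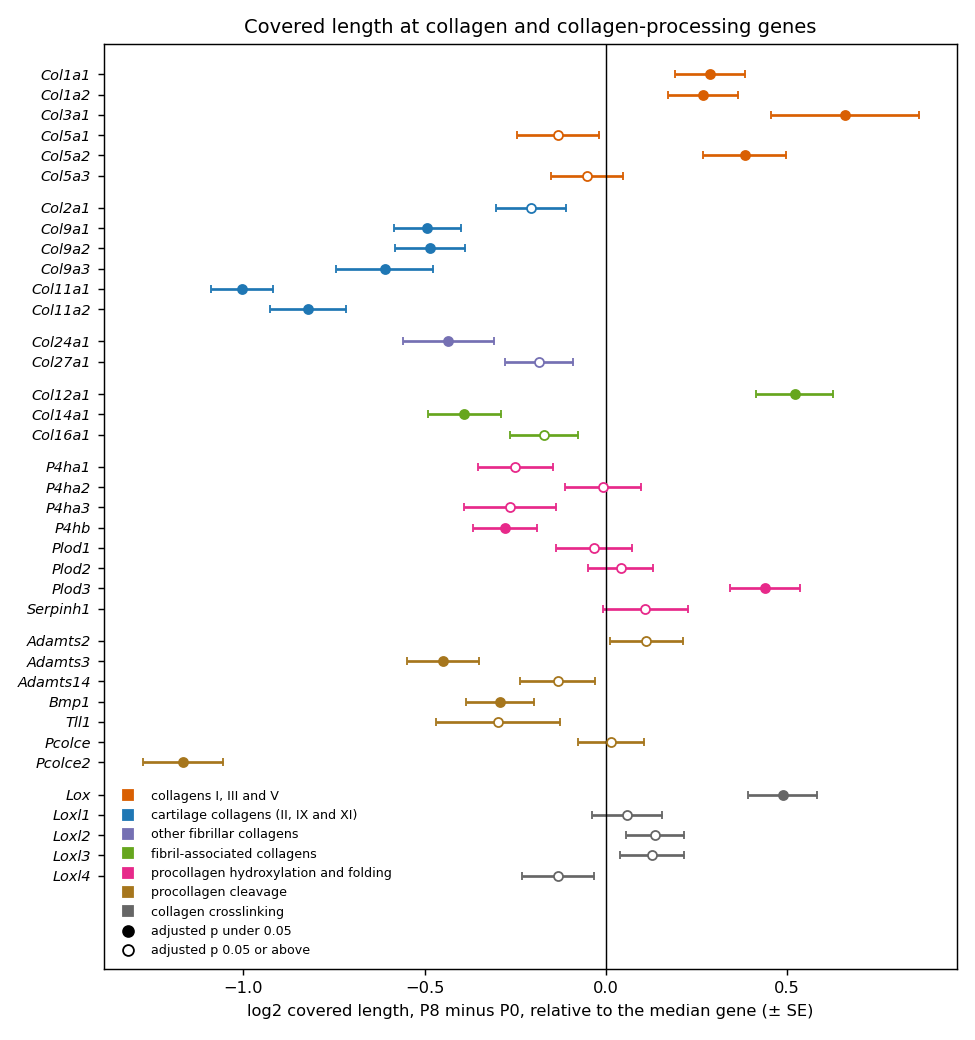
Centred log2 difference in covered length, P8 minus P0 (horizontal axis, ± SE from limma, 2 libraries per passage), for collagen genes and genes that process collagen; filled points passed at an adjusted p of 0.05. Of the collagen I, III and V genes 4 lie to the right of the median gene and passed, and all 6 cartilage collagen genes lie to the left; without centring no gene shown passed as higher at P8.

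Other collagen genes and genes that process collagen were mixed after centring, where 10.4% of all genes were higher at P8 and 15.4% lower. Of the remaining fibrillar collagens, *Col24a1* was lower at P8 (-0.43, limma adjusted p = 0.0178) and *Col27a1* did not pass. Among the fibril-associated collagens, which coat the surface of fibrils, *Col12a1* was higher (0.52, adjusted p = 0.00199) and *Col14a1* lower (-0.39, 0.00921) by limma. Of 8 genes for the hydroxylation and folding of procollagen, 1 was higher (*Plod3*, a lysyl hydroxylase, 0.44, limma adjusted p = 0.00338), 1 lower (*P4hb*, protein disulphide isomerase, -0.28, 0.0287) and 6 did not pass. Of 7 genes for the cleavage of procollagen ends, 0 were higher and 3 lower, namely *Pcolce2*, which enhances cleavage (-1.17, limma adjusted p = 3.54e-06), *Adamts3*, an amino-terminal protease (-0.45, 0.0037), and *Bmp1*, a carboxy-terminal protease (-0.29, 0.0295). Of 5 crosslinking enzymes, *Lox*, lysyl oxidase, was higher (0.49, limma adjusted p = 0.00156), 0 were lower and 4 did not pass. These directions are relative to the median gene. Without centring 0 genes of these lists were higher at P8, and 7 of 8 hydroxylation and folding genes, 7 of 7 cleavage genes, 4 of 5 crosslinking genes, 2 of 3 fibril-associated collagens and 2 of 2 other fibrillar collagens were lower, beside 64.7% of all genes.

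Marker genes were read on the same scale. Relative to the median gene, 6 of 7 chondrocyte markers were lower at P8 and 0 higher. Of 6 fibroblast and tendon markers other than the collagens, 2 were lower (*Pdgfra*, -0.37, and *Mkx*, -0.67, limma adjusted p = 0.038 and 0.018) and 0 higher. Of 3 osteoblast markers 0 passed, and in the blood, endothelial and muscle lists 1 gene each was lower and 0 were higher, beside 15.4% of all genes lower and 10.4% higher. Without centring the lower genes numbered 7 of 7 chondrocyte, 4 of 6 fibroblast and tendon, 2 of 3 osteoblast, 3 of 4 blood, 3 of 4 endothelial and 2 of 3 muscle markers, beside 64.7% of all genes, and 0 were higher.

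For each of the 6 genes, the protein-coding genes with the closest centred covered lengths over the 4 libraries were found among those with at least 5 peaks in each library and a window that does not overlap that of the collagen gene. They were *Lyrm7* and *Ifit2* for *Col1a1* (Euclidean distance 0.06 on the log2 scale for both), *Tbrg1* and *Panx3* for *Col1a2* (0.05) and *Cdca8* and *Tarm1* for *Col3a1* (0.28 and 0.29). For *Col5a1* they were *Fbxl13* and *Phldb1* (0.14 and 0.17), for *Col5a2* *Rfx8* and *Tmem198b* (0.11 and 0.13) and for *Col5a3* *Wtap* and *Cdkl2* (0.04 for both). *Tbrg1* and *Panx3* are neighbours on chromosome 9 with equal values in all 4 libraries, and count as 1 locus. *Col3a1* had the least close match of the 6.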

How the data were processed

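The members and gene lists were chosen with earlier results of these data known. ATAC-seq had been performed on 2 P0 and 2 P8 libraries. The authors aligned 50 bp paired-end reads with Bowtie2 to mm10 and called peaks in each library with MACS2 at default parameters, and tool versions and any shift of reads are not given in the sources used here. For each peak the authors deposited a length, a pileup signal in tags not scaled for depth, a fold enrichment ratio over local background, and the −log10 p-value and q-value. The authors' DiffBind fold changes, p-values and FDR between passages, and their list of sites, were not used. No per-library column was left unused (0).

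Peak names separated the libraries. Fold enrichment depends on depth, since a deeper library calls weaker and wider peaks, and peak lists hold no value where no peak was called. Gene positions came from the RefSeq table of GRCm38.p6 (21887 protein-coding genes). It gave no strand for 4395, *Col1a1* and *Col5a2* among them, for which either end counted as a start. Covered length was tested for 18387 genes with a mean of at least 0.5 kb, and fold enrichment (strongest peak per site) for 55890 sites, with limma 3.58.1 in R 4.3.3 (trend, Benjamini-Hochberg, adjusted p 0.05), after testing on simulated data. The study's comparison used read counts, which were not used here.

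Named were the start sites, per gene up to 3 shared sites with the largest absolute difference and up to 2 sites in both libraries of 1 passage and none of the other, the 6 genes, the 2 closest genes to each by covered length, and up to 2 genes per list and direction; *Bmp1* and the markers were added after their values were seen. Alternatives changed the scaling, depth, measure, pseudocount (1 kb), window (10 kb), filter, peak threshold, overlap (50% reciprocal) and libraries. Of these, leaving out sites at other gene starts and centring on gene-start sites were chosen after seeing the data.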

Additional observations from a re-analysis of the deposited data

How the results depend on the processing

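Scaling, the measure and single libraries each removed calls. The P8 libraries' lower depth lies in the same direction as the loss of peaks, so that depth and passage cannot be told apart in these files. At matched background 3 of the 4 genes stayed higher at P8 (*Col1a2* adjusted p = 0.0589, limma). That setting dropped peaks but kept the lengths of the others as called at full depth. It left 139125 of 145703 peaks in P0 library A and 119197 of 119974 in P0 library B, so it removed depth only in part. The number of the 6 genes higher at P8, 4 as reported, was 0 without centring, 0 by number of peaks, 0 by fold enrichment times length, 2 with 10 kb windows, and from 0 to 3 leaving out 1 library (2 without P0 library A, 0 without P0 library B). The number higher at P0, 0 as reported, was 2 without centring. Without centring *Col1a1* (-0.33), *Col1a2* (-0.35) and *Col5a2* (-0.24) changed sign. *Col5a3* did so at 0.0066 (fold enrichment times length), 0.16 (10 kb windows), 0.021 (without other starts) and 0.041 (without P0 library B; leave-one-out range -0.15 to 0.041), and *Col5a1* at 0.080 (without P0 library A; range -0.34 to 0.080).

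Of the member sites, 2 were higher at P8 and 3 at P0. These were 0 and 6 without centring, 1 higher at P8 after quantile normalization, 22 higher at P8 by pileup over background, 0 and 0 by peak length, 0 and 1 with stricter peaks, 0 and 0 with reciprocal overlap, 0 and 1 centred on gene-start sites, and from 0 to 2 and from 0 to 3 leaving out 1 library (0 higher at P0 without P0 library A, 0 in either direction without P0 library B). The smaller *Col1a2* start site turned to -0.17 without centring, -0.14 after quantile normalization, and -0.17 and -0.052 without P0 library A and P8 library A (range -0.17 to 0.37), and the *Col5a3* start to -0.25 without centring, -0.0061 with stricter peaks, -0.067 with reciprocal overlap and -0.067 without P8 library B (range -0.067 to 0.12). The 39 P0-only, 14 P8-only and 82 shared sites became 25, 6 and 44 with stricter peaks, and 77 P0-only and 63 P8-only with reciprocal overlap. With 10 kb windows 21 were P0-only and 46 shared. Leaving out 1 library gave from 19 to 51, from 6 to 29 and from 67 to 80. Without P0 library A 19 were P0-only and 29 P8-only, and the P8-only sites were 9 without P8 library A and 6 without P8 library B. The cause of these changes was not tested.

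Over all genes, calls higher at P8 and at P0 numbered 1919 and 2829, against 23 and 11903 without centring, 408 and 1499 by number of peaks, 849 and 1901 with 10 kb windows, and from 648 to 3033 and from 1318 to 3870 leaving out 1 library. The filter moved the former to 3066. Over all sites they numbered 3467 and 2090, against 601 and 6571 without centring, 1372 and 1742 after quantile normalization, 7711 and 4972 by pileup over background, 61 and 207 by peak length, and from 111 to 4460 and from 48 to 3080 leaving out 1 library. Of 250 alternative values for the results, 148 kept their direction and side of the threshold or stayed within the spread. No paired analysis was possible because the peak names match no numbered sample title, so the replicate block was not run.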

Other observations

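The shared sites around the cartilage collagens differed from those around collagens I, III and V in the direction of their calls. Of 56 cartilage collagen sites called in all 4 libraries, 17 were higher at P8 and 1 higher at P0 by limma after centring. Over all sites tested these shares were 6.2% and 3.74%. The median difference of the cartilage collagen sites was 0.33, opposite in sign to that of their covered length. Of their 199 sites, 42 were called in both P0 libraries and in no P8 library, against 17% of all sites. Sites without a P8 peak have no value in this test, so the sites tested are those kept at P8. Of the 55 shared sites around collagens I, III and V, 2 were higher at P8 and 3 at P0. The difference between these lists was not tested.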
